A study of Mus musculus with 47 samples.

Results

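The replication-dependent histone genes of the mouse were followed in medullary thymic epithelial cells (mTECs) of adult and neonatal mice. They were taken as all protein-coding genes whose GRCm38 symbol begins with Hist1h, Hist2h, Hist3h or Hist4h, and 67 of the 53402 genes in the adult count table and of the 55471 in the neonatal table met this rule. Of these, 6 encode linker histone H1, 18 encode H2A, 18 encode H2B, 12 encode H3 and 13 encode H4. On GRCm38, 54 lie in the Hist1 cluster (chr13:21715763-23934851), 10 in Hist2 (chr3:96219865-96270132), 2 in Hist3 (chr11:58948920-58956830) and 1, Hist4h4, alone at chr6:136801553-136804415. After a filter on low counts, 18 members were tested in adults and 24 in neonates, and the 18 were tested in both.

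H2A, H2B, H3 and H4 form the core of the nucleosome, and H1 binds the linker DNA between nucleosomes. A dividing cell must supply histones for its newly copied DNA, and transcription of these genes is coupled to S phase. Their mRNAs are the known exception among mRNAs of animal cells in that most end in a conserved stem-loop instead of a poly(A) tail. The stem-loop is bound by SLBP, cleavage depends on the U7 snRNP, and the mRNAs are degraded when DNA synthesis stops. Some members also make longer, polyadenylated mRNAs in cells that have stopped dividing. In the thymic medulla, Aire drives expression of tissue-restricted antigens in mature mTECs, and EED is needed for Polycomb repressive complex 2, the enzyme that methylates lysine 27 of histone H3.

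The 47 bulk libraries were total RNA from C57BL/6 mice, made by a full-length method that primes with oligo-dT and with not-so-random primers and can therefore also copy RNA without poly(A). Sorted cells were DAPI-, CD45-, EpCAM+ and Ly51-, and were divided by MHC class II into mTEChi, which include the mature Aire-expressing cells, and mTEClo. Adult mice of 4 to 6 weeks gave 7 WT and 4 AireKO mTEChi libraries and 8 WT and 4 AireKO mTEClo libraries. Neonates of 1 to 6 days gave 14 mTEChi libraries (Ctrl 5, the 3 mutants EEDcKO, AireKO and AireEEDdKO 3 each) and 10 mTEClo libraries (Ctrl 3, EEDcKO 4, AireEEDdKO 3). AireKO was a germline allele. EEDcKO carried floxed EED deleted by Foxn1-Cre, which acts in thymic epithelial cells from early in development, and AireEEDdKO carried both changes. All adult AireKO mice were male, while adult WT mTEChi and mTEClo libraries came from mice of both sexes. Of the neonatal libraries 5 were female, 10 male and 9 pooled from both sexes.

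Libraries held 1602125 to 3938588 counts in adults and 1578579 to 4817418 in neonates, of which 265 to 1000 and 295 to 1667 fell on the histone members, so that 1 count was worth 0.204 to 0.683 CPM, the count scaled to the effective size of its library. Aire was at 746 to 914 CPM in adult WT mTEChi and 16.6 to 38.1 in AireKO, and at 460 to 801 in neonatal Ctrl mTEChi against 44.4 to 114 in AireKO and 9.9 to 32.1 in AireEEDdKO. Eed was at 20.2 to 38.5 CPM in neonatal Ctrl mTEChi against 10.6 to 19.7 in EEDcKO, and Epcam was present in every group. All 4 adult mTEChi AireKO libraries and replicates 3 and 4 of adult mTEClo AireKO held 0 counts over the 37 mitochondrial genes, while the other adult libraries held 6178 to 10339. Genotype and this kind of library therefore cannot be told apart in adult mTEChi, and results that rest on these 6 libraries are given with the values that bear on them.

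The stem-loop is shown because it decides how these mRNAs end and which priming captures them. It was found in the reference 3′ untranslated regions of 42 members, 25 to 59 bases (median 32) after the stop codon. Another 10 had none there, and 15 had no annotated untranslated region to search. There were 5 forms, with the paired arms of the stem in capitals and the loop in lower case.
The form of 26 members, among them Hist1h1c, Hist1h1d, Hist1h1e, Hist2h3c2 and Hist3h2a: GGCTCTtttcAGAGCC
The form of 7 members, all H4 (Hist1h4c, Hist1h4d, Hist1h4f, Hist1h4h, Hist1h4m, Hist1h4n and Hist4h4): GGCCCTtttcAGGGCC
The form of 6 members (Hist1h1t, Hist1h2bb, Hist1h2bk, Hist1h3c, Hist1h3e and Hist1h3f): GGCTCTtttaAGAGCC
The form of Hist1h4b and Hist1h4j: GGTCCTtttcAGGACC
The form of Hist1h4a: GGCCCTtctcAGGGCC

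The annotated transcripts ran on for 3 to 4884 bases (median 91) beyond the stem-loop. The longest extension was in Hist1h1d, with 4884 bases, followed by Hist4h4 with 2445 bases, and Hist3h2a had 1643. The members without a stem-loop in their annotated region included Hist1h1a, Hist1h2bc, Hist1h4i and Hist2h2be. Members with and without an annotated stem-loop are thus among those that changed below. Its absence does not show a polyadenylated ending, as a fixed pattern of letters was searched, in only 48 bases for Hist1h1a. Which ending the counted reads came from cannot be read from gene counts.

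Promoters of the linker histone genes that were tested, and of Hist4h4, are shown because these genes carried the largest part of the levels and 1 of the adult differences. RefSeq (GRCm38.p6) held promoters for 62 of the 67 members, 63 in all, each with 250 bases before and 50 after the start. The 150 bases before the start are printed in the direction of transcription, with the motifs in capitals on either strand. The motifs were the TATA box, spelled TATAAA. The CCAAT box was spelled by its name. The H1 box was spelled AAACACA, in place of the planned spelling AACACAAA, which is given below. Some capitals at the left edge of Hist1h1d belong to TATAAA matches, 1 of which begins outside the window.
Hist1h1a, chr13:23763518-23763667, plus strand: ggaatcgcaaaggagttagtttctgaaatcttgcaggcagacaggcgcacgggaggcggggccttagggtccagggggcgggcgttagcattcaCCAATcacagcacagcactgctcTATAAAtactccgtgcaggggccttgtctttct
Hist1h1b, chr13:21780626-21780775, minus strand: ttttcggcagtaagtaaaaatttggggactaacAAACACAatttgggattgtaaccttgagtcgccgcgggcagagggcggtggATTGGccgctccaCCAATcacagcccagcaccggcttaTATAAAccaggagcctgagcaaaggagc
Hist1h1c, chr13:23738657-23738806, plus strand: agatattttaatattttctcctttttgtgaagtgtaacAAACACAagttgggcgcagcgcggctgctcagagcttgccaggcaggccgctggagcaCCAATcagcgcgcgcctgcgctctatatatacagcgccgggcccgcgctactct
Hist1h1d, chr13:23554882-23555031, plus strand: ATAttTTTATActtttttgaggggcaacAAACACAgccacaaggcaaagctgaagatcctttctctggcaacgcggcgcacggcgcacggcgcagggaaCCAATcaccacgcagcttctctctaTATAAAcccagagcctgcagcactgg
Hist1h1e, chr13:23622559-23622708, minus strand: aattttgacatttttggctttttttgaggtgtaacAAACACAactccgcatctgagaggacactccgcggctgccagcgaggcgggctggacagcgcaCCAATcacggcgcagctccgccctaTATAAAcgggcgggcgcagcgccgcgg
Hist4h4, chr6:136804432-136804581, minus strand: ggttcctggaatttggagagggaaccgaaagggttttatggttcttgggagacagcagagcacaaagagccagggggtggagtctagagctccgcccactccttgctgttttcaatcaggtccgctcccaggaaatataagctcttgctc

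The H1 promoters were alike in layout. The H1 box began 117 bases before the start in Hist1h1b, 112 in Hist1h1c, 122 in Hist1h1d, 115 in Hist1h1e and 114 in Hist1h1t, and a CCAAT began 51 to 65 bases before the start in all 6. Hist1h1a held no H1 box of these letters in this window. Over the 63 histone promoters, AAACACA stood in 14.3% against 7.18% of all 32851 RefSeq promoters, and in 83.3% of the H1 promoters. The planned spelling, AACACAAA, stood in 4.76% of the histone promoters against 1.69% of all promoters, and in 16.7% of the H1 promoters. TATAAA stood in 55.6% against 13.6%, and CCAAT in 85.7% against 37.4%, with 25.0% of the H4 promoters holding CCAAT. The octamer ATTTGCAT stood in 22.2% against 1.74% of all promoters, and all its matches lay in H2A (38.9%) and H2B (41.2%) promoters. The shown window of Hist4h4 held none of the motifs.

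How well a member could be counted differed by type. The 13 H4 genes encode 1 protein from 12 distinct coding sequences of 312 bases, and the 12 H3 genes encode 3 proteins, so that short reads often match several members. The share of a gene's 50-base exon windows that occur in no transcript of another gene, on either strand, had a median of 98.88% in H1, 60.53% in H4, 53.06% in H2B, 38.02% in H3 and 27.0% in H2A. Reads matching several places were dropped by the mapping filter, so the levels of H2A, H3 and some H2B genes are understated, and groups are compared within a gene. Among the members named below, Hist1h2bn had 13.55% unique windows, Hist2h3c2 36.5%, Hist1h2bj 40.6% and Hist1h2ab 42.0%. Hist1h1a, Hist1h1b and Hist2h2be had 100%. Hist1h1e shared 25.7% of its exon bases, and Hist3h2a 32.99%, with overlapping annotated genes, and the counting did not use strand.

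Counts were concentrated in few members. Over all 47 libraries 36743 counts fell on the 67 genes, 51.8% of them on 5. There were 9 members at 0 in every library (Hist1h2aa, Hist1h2ap, Hist2h2aa1, Hist2h2aa2, Hist2h2ab, Hist1h2br, Hist2h2bb, Hist2h3b and Hist2h3c1), and 15, these included, had 10 counts or fewer. Of the 9, Hist2h2aa1, Hist2h2aa2, Hist2h2bb, Hist2h3b and Hist2h3c1 had 0% unique windows and shared 100% of their exon bases with overlapping annotated genes. Their 0 counts therefore do not show that they were silent. The germ-cell members, Hist1h1t of spermatocytes and Hist1h2aa and Hist1h2ba of testis, did not pass the filter and summed to 0 to 4.09 CPM per library.

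Scaled to exon length, 2 linker histone genes had the highest levels of all members. Hist1h1c had a mean of 34.3 CPM per kilobase over all libraries and Hist1h1b 27.9, and Hist1h1a, the next within H1, was at 10.6, below Hist1h2bc and Hist1h4d. In H2B, Hist1h2bc was at 19.4, Hist1h2bn at 8.05 and Hist2h2be at 6.22. In H4, Hist1h4d was at 11, Hist4h4 at 6.26 and Hist1h4i at 3.34. In H2A, Hist3h2a was at 6.71, Hist1h2ab at 3.87 and Hist1h2ac at 1.56. In H3, Hist2h3c2 was at 5.06, Hist1h3d at 1.89 and Hist1h3a at 1.2. Annotated exons include the regions beyond the stem-loop, so genes with long extensions such as Hist1h1d (7425 exon bases, 3.88 CPM per kilobase) are scaled down by them.

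Summed over all members, the level was lowest in adult mTEClo and highest in neonatal AireKO mTEChi. The sum was 160.8 ± 13.55 CPM (SD, n = 8) in adult WT mTEClo, 224.7 ± 25.07 (n = 4) in adult AireKO mTEClo, 236.9 ± 28.51 (n = 7) in adult WT mTEChi and 265.9 ± 23.93 (n = 4) in adult AireKO mTEChi. In neonatal mTEChi, Ctrl held 318.7 ± 24.8 CPM (n = 5) and AireKO 517.3 ± 115.1 (n = 3), while the deletion of EED gave 281.0 ± 86.52 (n = 3) alone and 391.1 ± 105.0 (n = 3) with AireKO. In neonatal mTEClo, Ctrl held 314.8 ± 20.48 CPM (n = 3), EEDcKO 263.5 ± 58.78 (n = 4) and AireEEDdKO 273.9 ± 53.98 (n = 3). Adult WT mTEClo, at 138.5 to 179.4 CPM, lay below every other adult group. The 3 neonatal AireKO libraries, at 648.9, 435.8 and 467.1, lay above all 5 Ctrl libraries, and the EEDcKO groups overlapped Ctrl. Adult and neonatal tables were scaled separately, so levels across ages are set side by side without a test.

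**Figure D1:**
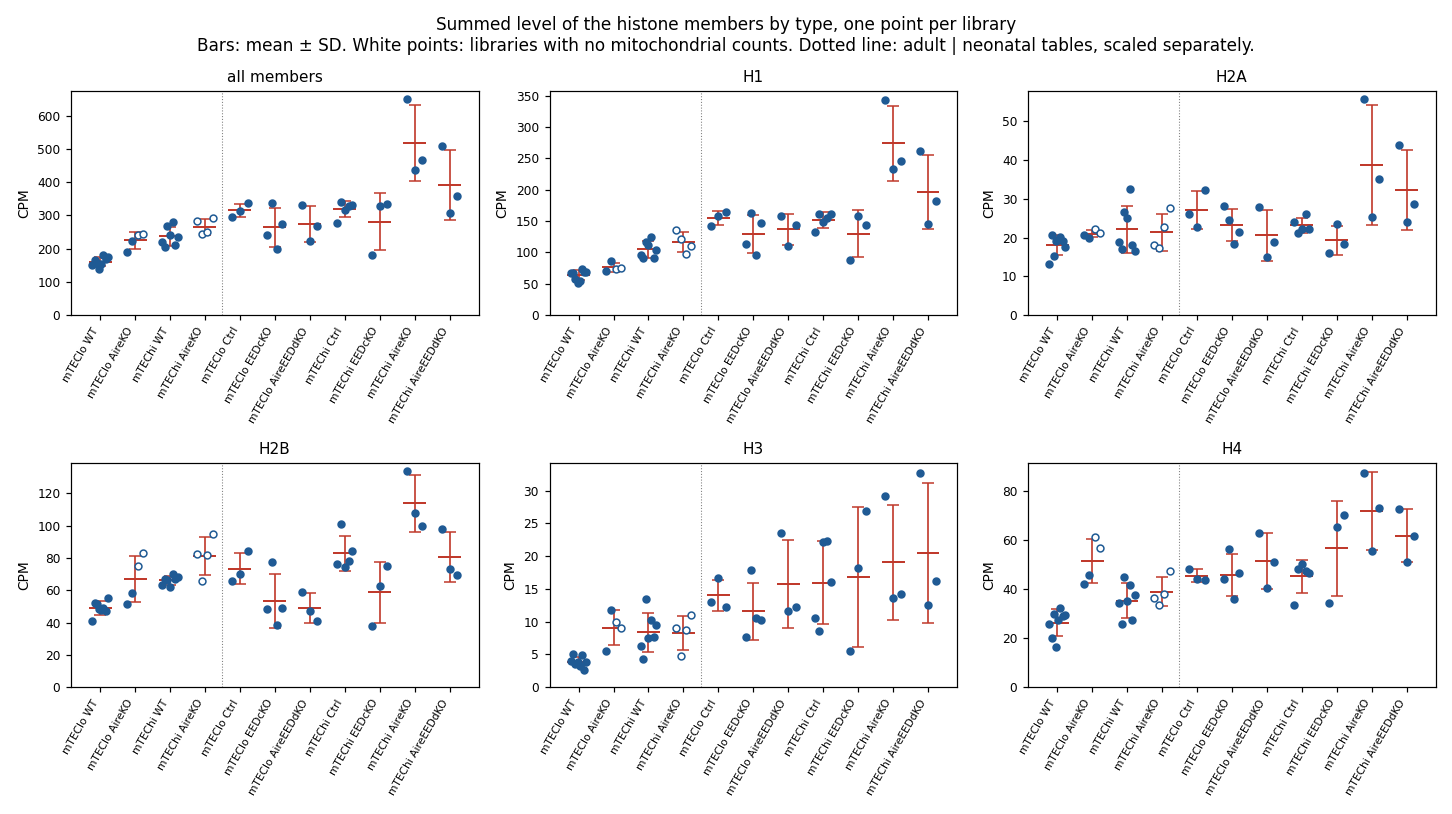
Summed CPM of all 67 members and of each histone type, 1 point per library with the mean and SD of each group as bars; white points are libraries without mitochondrial counts, and the dotted line parts adult from neonatal groups, which were scaled separately. In neonatal mTEChi the H1 sum was 274.0 ± 60.18 in AireKO against 151.6 ± 12.14 in Ctrl.

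H1 had the largest summed CPM of the 5 types in every group mean, and it is also the type with the highest median share of unique windows, 98.88%. In adult AireKO mTEClo replicates 3 and 4, H2B was above it, at 74.73 and 83.17 CPM against 72.93 and 75.57. Its share of the summed CPM had a median of 40.1% in adult WT mTEClo, 44.1% in adult WT mTEChi and 47.4% in neonatal Ctrl mTEChi, where the 5 libraries spanned 46.8 to 48.9%. In neonatal AireKO mTEChi it was 52.5 to 53.6%, above every Ctrl library, and in adult AireKO mTEClo its median was 33.9%. The H4 sum in adult AireKO mTEClo was 51.26 ± 9.06 CPM (n = 4) against 26.17 ± 5.47 (n = 8) in WT, and the H3 sum 9.06 ± 2.67 against 3.886 ± 0.779. Neither pair of groups overlapped. The H3 sums rested on 10 to 37 counts per library in AireKO and 7 to 16 in WT. Over only members with mostly unique windows the H3 means were 2.592 and 1.949 CPM.

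In adult WT mice, mTEChi held more linker histone mRNA than mTEClo. Of 18 members tested, 6 were higher in mTEChi by edgeR's quasi-likelihood test, at an adjusted p under 0.05 and at least a 2-fold difference, and none was lower. Over all genes 36.0% were called in this comparison, 23.8% as higher, so the members' share was close to that of all genes. The median log2 fold change of the members was 0.75, against 0.014 over all genes, and 16 of 18 were positive. These are bulk samples, in which fewer cells of a type and less RNA per cell cannot be told apart. The labels do not tie every library to separate animals, so p-values measure the spread between these libraries, which may in part be technical.

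Hist1h1d, a somatic linker histone, was at 5.68 to 11.6 CPM (median 7.92) in 8 mTEClo libraries and 13.4 to 27.2 (median 21.6) in 7 mTEChi libraries. The ranges did not overlap, and the log2 fold change was 1.19 ± 0.18 (SE, edgeR adjusted p = 9.50e-07). Hist1h1b, a linker histone of dividing cells, was at 1.50 to 8.0 CPM (median 4.36) in mTEClo and 10.0 to 17.4 (median 12.8) in mTEChi, and differed by 1.60 ± 0.38 (edgeR adjusted p = 0.000514). Hist1h1a was at 1.25 to 2.44 (median 2.27) and 2.50 to 7.44 CPM (median 5.42), and differed by 1.35 ± 0.33 (edgeR adjusted p = 0.000654). In all 3 genes every mTEChi library lay above every mTEClo library. Hist1h1c, the most abundant linker histone gene, was at 30.7 to 49.5 CPM (median 40.3) and 49.8 to 59.1 (median 53.9), without overlap, but its difference of 0.45 ± 0.09 (edgeR adjusted p = 9.85e-05) was below 2-fold.

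The core histone genes called were of H2B and H3. Hist1h2bj was at 0 to 1.26 CPM (median 0.465) in mTEClo and 1.25 to 4.96 (median 3.19) in mTEChi, and the log2 fold change was 2.33 ± 0.40 (edgeR adjusted p = 8.57e-06), on 16 counts over all mTEClo libraries and 64 over all mTEChi libraries. Hist1h2bn differed by 1.38 ± 0.42 (edgeR adjusted p = 0.00500) and Hist2h3c2 by 1.02 ± 0.33 (edgeR adjusted p = 0.00795), and in both the highest mTEClo library reached into the mTEChi range. Near the 2-fold threshold, the call of Hist2h3c2 was lost in 9 alternatives and held in 15. None of 2 H2A and 4 H4 genes was called. Markers of other cells moved with this comparison: 8 of 9 myeloid and B genes were higher in mTEChi (sums of 303 to 379 CPM against 49.8 to 79.3), as were 7 of 9 thymocyte genes, and their part in the result was not tested. With only these WT libraries in the fit, 12 members passed the filter and 2 were called.

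**Figure D2:**
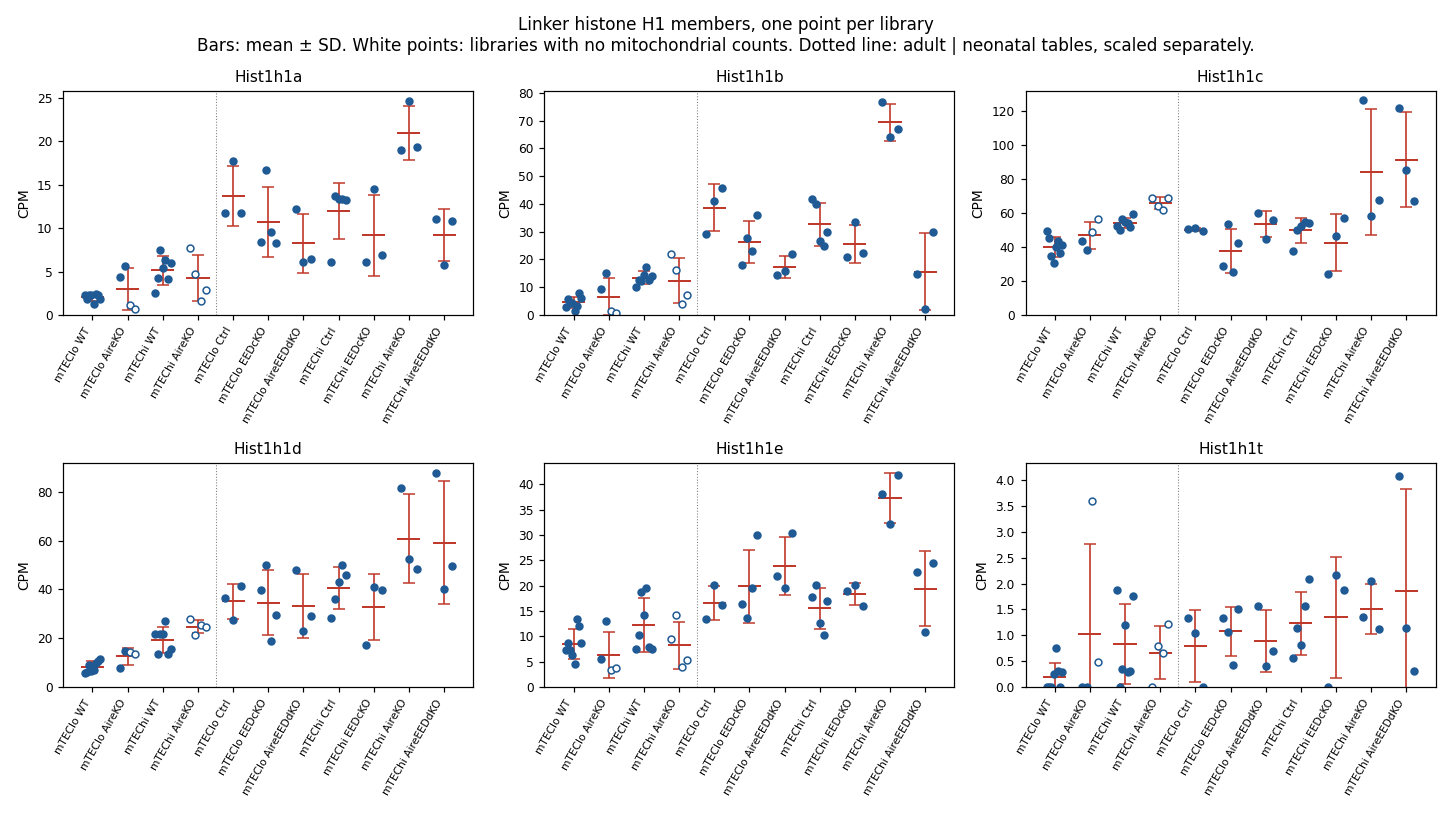
CPM of the 6 linker histone genes, 1 point per library with group mean and SD; white points are libraries without mitochondrial counts. Hist1h1b was at 76.8, 64.2 and 67.0 in neonatal AireKO mTEChi and at 14.6, 2.29 and 29.9 in AireEEDdKO, and the germ-cell gene Hist1h1t reached at most 4.09.

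Without Aire, adult mTEClo held more of 2 core histone mRNAs. Hist4h4 and Hist2h3c2 rose, none fell, and 8.31% of all genes were called in this comparison, 4.61% as higher. The median of the 18 members was 0.24 against 0.022 over all genes, and 15 were positive. Hist4h4, the solitary H4 gene, was at 2.87 to 9.36 CPM (median 7.08) in 8 WT libraries and at 21.8, 20.5, 30.6 and 28.7 in the 4 AireKO libraries. Every AireKO library lay above the WT range, with and without mitochondrial counts, and the log2 fold change was 1.94 ± 0.27 (edgeR adjusted p = 3.91e-06). Hist2h3c2, an H3 gene, was at 0.624 to 2.53 CPM (median 1.41) in WT and at 2.18, 8.71, 6.30 and 4.66 in AireKO, with 1 AireKO library inside the WT range, and rose by 1.69 ± 0.35 (edgeR adjusted p = 0.000835).

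Age and library kind touched these calls. AireKO mice were 5 or 6 weeks old and WT mice 4 or 5, and with age in the fit Hist4h4 rose by 1.50 while Hist2h3c2, at 1.23, was no longer called. AireKO mice were also all male and WT mice of both sexes, and with sex in the fit 2 members were called higher. With the 2 AireKO libraries that held mitochondrial counts alone, 4 members were called higher: Hist4h4 at 1.64, Hist2h3c2 at 1.65, Hist1h1b at 1.41 and Hist1h1a at 1.23. Hist1h1b was at 9.27 and 14.9 CPM in those 2 libraries and at 1.50 and 0.736 in the 2 without mitochondrial counts, where the summed level of 20 G2 and mitosis genes was also lower, 133.3 and 59.9 CPM against 408.3 and 669.6. In the adult AireKO mTEClo libraries markers of other cells moved too: the summed cTEC markers were at 342 to 558 CPM against 233 to 284 in WT, and myeloid and B cell markers at 121 to 168 against 49.8 to 79.3. Their part in the histone values was not tested.

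Hist1h2bc, an H2B gene whose annotated transcripts held no stem-loop, was also apart by library kind, in the other direction from Hist1h1b. It was at 13.1 to 19.7 CPM (median 15.7) in WT mTEClo and at 16.4, 13.1, 35.4 and 44.9 in AireKO, where the 2 high libraries were those without mitochondrial counts. Its log2 difference of 0.86 (edgeR adjusted p = 0.00228) was below 2-fold. In mTEChi it was at 20.0 to 23.7 CPM (median 21.3) in 7 WT libraries and at 42.0, 30.8, 40.6 and 52.3 in 4 AireKO libraries, all without mitochondrial counts, a difference of 0.93 ± 0.20 (edgeR adjusted p = 0.000247). With mitochondrial counts as a term, which only mTEClo AireKO informs, this difference turned to -0.51.

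In adult mTEChi no member passed both thresholds between AireKO and WT, where 23.4% of all genes were called. By edgeR 4 members had an adjusted p under 0.05, as did 10529 of all 19310 genes, and none of the 4 reached 2-fold. They were Hist1h2bc, Hist2h2be, Hist1h1c at 0.28 (edgeR adjusted p = 0.0319) and Hist1h4d at 0.54 (edgeR adjusted p = 0.0375). By DESeq2 also 0 were called, and the median was -0.17 against -0.053 over all genes, with 8 of 18 positive. Besides Hist1h2bc, Hist2h2be, an H2B gene with described polyadenylated forms, was at 12.1 to 23.8 CPM (median 17.5) in WT and at 8.57, 7.11, 13.6 and 11.4 in AireKO, and differed by -0.75 ± 0.19 (edgeR adjusted p = 0.00127). Only 1 AireKO library reached into the WT range. With mitochondrial counts as a term 2 members were called, Hist1h1b at 3.24 and Hist1h1a at 1.96, and leaving out AireKO replicate 2 also gave 2.

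The Aire effect on 2 members differed between the adult populations. Hist4h4 rose in mTEClo, but in mTEChi it was at 6.68 to 16.9 CPM (median 12.3) in WT and at 3.85, 7.51, 11.7 and 18.3 in AireKO, which overlapped. The difference of the effects, mTEChi minus mTEClo, was -2.13 ± 0.40 for Hist4h4 (edgeR adjusted p = 0.000220) and -1.46 ± 0.50 for Hist2h3c2 (edgeR adjusted p = 0.0323), in a test that called 13.8% of all genes, 11.6% as lower. Hist4h4 was called in 32 of 32 alternatives and Hist2h3c2 was lost in 10 of 32. Leaving out mTEClo WT replicate 5 or 8, mTEClo AireKO replicate 2 or 3, mTEChi WT replicate 7, or mTEChi AireKO replicate 1 or 2 left 1 called. The comparison uses the same libraries as both Aire comparisons above, mTEChi AireKO without mitochondrial counts included.

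**Figure D3:**
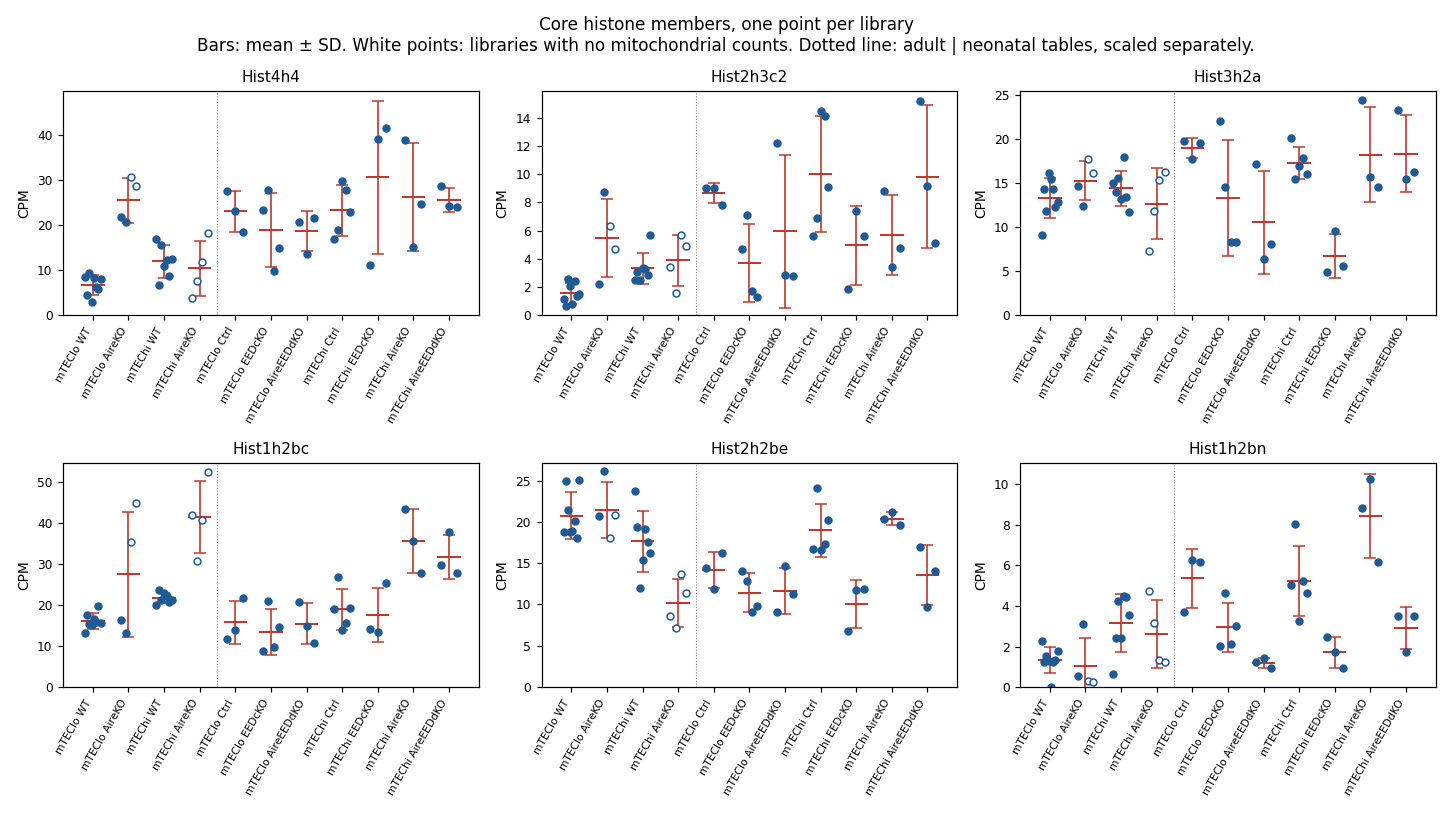
CPM of 6 core histone genes, 1 point per library with group mean and SD; white points are libraries without mitochondrial counts. In adult mTEClo Hist4h4 was at 20.5 to 30.6 in AireKO and at most 9.36 in WT, while in mTEChi the genotypes overlapped.

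Between the adult AireKO populations, 3 members were higher in mTEChi and 2 lower, with 35.3% of all genes called. Hist1h2bg, at 0.545, 3.11, 2.10 and 0.981 CPM in mTEClo and 2.57, 2.77, 4.33 and 4.87 in mTEChi, differed by 1.18 ± 0.40 (edgeR adjusted p = 0.0134). Hist1h2bj differed by 1.36 ± 0.47 (edgeR adjusted p = 0.0149) and Hist1h2bn by 1.67 ± 0.70 (edgeR adjusted p = 0.0428). Hist2h2be, at 20.7, 26.1, 18.0 and 20.9 CPM in mTEClo and 8.57, 7.11, 13.6 and 11.4 in mTEChi, was lower by -1.04 ± 0.20 (edgeR adjusted p = 7.86e-05), and Hist4h4 by -1.32 ± 0.31 (edgeR adjusted p = 0.000618). The 2 lower genes did not overlap between the populations. The median was 0.51 against -0.045 over all genes. The split of higher and lower calls was 5 and 1 with RLE size factors and 2 and 2 with library size alone.

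Same-numbered libraries of these AireKO groups deviated from their group means together, with correlations of 0.139 to 0.222, and were taken as paired. They also share age, 5 weeks in replicates 1 and 2 and 6 weeks in 3 and 4, and its part in this was not tested. With the replicate block 4 of the 5 were called, without Hist1h2bn: Hist1h2bg at 1.21, Hist1h2bj at 1.36, Hist2h2be at -1.04 and Hist4h4 at -1.31. With the block within the 2 groups alone, 3 of 13 members tested were called, Hist1h1b at 1.17, Hist2h2be at -1.04 and Hist4h4 at -1.34. In the libraries without mitochondrial counts alone, Hist1h1a (2.08), Hist1h1b (3.44), Hist1h2bg (1.28) and Hist1h2bj (1.76) were higher and Hist4h4 (-1.50) lower. Leaving out mTEClo AireKO replicate 4, or mTEChi AireKO replicate 1 or 2, left 3 called. Over all alternatives Hist4h4 was never lost, while Hist1h2bn was lost in 7 of 16 and Hist2h2be in 7 of 19.

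In neonatal mTEChi, loss of Aire went with more linker and H4 histone mRNA. Of 24 members tested, 7 were higher in AireKO than in Ctrl and none lower, where 16.4% of all genes were called but 3.56% as higher. They were 2 of 5 linker histones, 3 of 5 H4 genes, 1 of 3 H2A genes and 1 of 9 H2B genes. The median was 0.71 against 0.035 over all genes, and 22 of 24 were positive with TMM or RLE factors, 18 of 24 with library size alone, a scaling that moved the median of all genes to -0.17. The 5 Ctrl libraries were 6, 6, 2-3, 2-3 and 1 days old, and the 3 AireKO libraries 4, 6 and 4. Summed thymocyte markers were at 343.5 to 408.5 CPM in AireKO and 245.4 to 273.9 in Ctrl, although 0 of their 10 tested genes were called higher and 1 lower. Of the other markers 4 of 10 myeloid and B, 5 of 8 mesenchyme and 2 of 6 cTEC genes were called lower and 2 mesenchyme genes higher. Their part in the histone values was not tested.

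Hist1h1e, a somatic linker histone, was at 17.9, 20.1, 12.6, 10.2 and 17.0 CPM in Ctrl and at 38.1, 32.1 and 41.8 in AireKO. The lowest AireKO library lay above the highest Ctrl library, and the log2 fold change was 1.31 ± 0.26 (edgeR adjusted p = 0.000887), called in 16 of 16 alternatives. Hist1h1b was at 41.8, 40.1, 26.5, 24.9 and 29.7 CPM in Ctrl and at 76.8, 64.2 and 67.0 in AireKO, again without overlap, and rose by 1.11 ± 0.33 (edgeR adjusted p = 0.0146). Hist1h1c was at 37.4, 49.8, 52.4, 54.7 and 53.9 CPM in Ctrl and 126, 58.1 and 67.8 in AireKO, a difference of 0.74 that was not called, with 1 AireKO library far above the other 2.

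Of H4, Hist1h4d was at 10.0, 14.9, 11.5, 9.95 and 11.4 CPM in Ctrl and at 27.2, 17.8 and 24.4 in AireKO, and rose by 1.02 ± 0.22 (edgeR adjusted p = 0.00171). Its groups did not overlap, but the call was lost in 10 of 16 alternatives. Of the other rises in this comparison, Hist1h4c was lost in 10 of 15, Hist1h2bj in 8 of 16, Hist1h4i in 6 of 16, Hist1h1b in 5 of 16 and Hist1h2ab in 1 of 15. Hist1h4i rose by 1.74 ± 0.54 (edgeR adjusted p = 0.0183) and Hist1h4c by 1.34 ± 0.46 (edgeR adjusted p = 0.0317), and in both 1 AireKO library lay inside the Ctrl range. Of H2B, Hist1h2bj was at 1.67, 4.01, 1.64, 1.31 and 2.79 CPM in Ctrl and at 8.15, 5.46 and 6.45 in AireKO, without overlap, and rose by 1.58 ± 0.52 (edgeR adjusted p = 0.0259). Hist1h2ab, an H2A gene, was at 0, 1.15, 0, 0.786 and 0.232 CPM in Ctrl, 6 counts in all, and at 4.76, 0.683 and 5.60 in AireKO, and rose by 3.20 ± 0.89 (edgeR adjusted p = 0.00974), with 1 AireKO library of 1 count. By DESeq2 5 members were called, and with library size alone 3. Leaving out Ctrl replicate 3, Ctrl replicate 4 or AireKO replicate 3 left 2, and AireKO replicate 1 left 4.

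With both EED and Aire absent, members were lower than with Aire alone absent. Between AireEEDdKO and AireKO mTEChi, 5 of 24 members were lower and none higher, where 9.47% of all genes were called, 2.78% as lower. They were 2 linker histones and 3 H2B genes, the median was -0.52 against 0.034 over all genes, and 5 of 24 were positive. These groups have the same ages, 4, 6 and 4 days, and share the AireKO libraries with the comparison above.

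Hist1h1b was at 76.8, 64.2 and 67.0 CPM in AireKO and at 14.6, 2.29 and 29.9 in AireEEDdKO, far apart in every library, and fell by 2.04 ± 0.40 on the log2 scale (edgeR adjusted p = 0.00112). Hist1h1a was at 19.0, 24.6 and 19.3 CPM against 11.1, 5.73 and 10.8, and fell by 1.15 ± 0.38 (edgeR adjusted p = 0.0372). Hist1h2bn was at 8.83, 10.2 and 6.16 CPM against 3.50, 1.72 and 3.50, and fell by 1.44 ± 0.42 (edgeR adjusted p = 0.0190). Both Hist1h1a and Hist1h2bn were lower in every AireEEDdKO library than in any AireKO library.

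Hist1h2bg was at 10.2, 6.83 and 6.45 CPM in AireKO and at 4.09, 0.573 and 3.50 in AireEEDdKO, and fell by 1.43 ± 0.47 (edgeR adjusted p = 0.0385). Hist1h2bb was at 4.08, 3.42 and 3.92 CPM against 2.34, 0 and 0.955, and fell by 1.80 ± 0.60 (edgeR adjusted p = 0.0418), on 25 and 7 counts. Neither overlapped. Hist1h1c, by contrast, was at 121, 85.4 and 67.1 CPM in AireEEDdKO and overlapped AireKO. Same-numbered libraries deviated together here as well, with correlations of 0.108 to 0.213, and were taken as paired, though they also share age. With the replicate block 2 of the 5 were called, Hist1h1b at -2.09 (edgeR adjusted p = 0.00292) and Hist1h2bn at -1.40 (edgeR adjusted p = 0.0269). With the block within the 2 groups alone, 4 were called, Hist1h1a at -1.13, Hist1h2bg at -1.39, Hist1h1b at -2.10 and Hist1h2bn at -1.37. Leaving out AireKO replicate 2 or AireEEDdKO replicate 2 left 1, AireKO replicate 1 left 2 and AireKO replicate 3 left 3. Over all alternatives Hist1h1b was never lost, while Hist1h2bn was lost in 3 of 15, Hist1h1a and Hist1h2bg in 8 of 15 each and Hist1h2bb in 8 of 13.

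With EED alone deleted, few members differed in neonatal mTEChi. Against Ctrl, 1 was higher and 2 lower, with 13.9% of all genes called, a median of -0.26 against -0.0012 over all genes, and 7 of 24 positive. Hist1h2ab was at 3.07, 3.25 and 4.06 CPM in EEDcKO and at most 1.15 in Ctrl, and rose by 3.01 ± 0.87 (edgeR adjusted p = 0.0108). Hist3h2a, an H2A gene, was at 20.1, 15.5, 16.9, 17.8 and 16.0 CPM in Ctrl and at 4.92, 9.55 and 5.61 in EEDcKO, and fell by 1.29 ± 0.35 on the log2 scale (edgeR adjusted p = 0.00693). Hist1h2bn was at 5.02, 8.02, 3.27, 5.24 and 4.65 CPM in Ctrl and at 2.46, 1.74 and 0.936 in EEDcKO, and fell by 1.63 ± 0.41 (edgeR adjusted p = 0.00394). None of the 3 overlapped between the groups. Hist2h2be, at 16.7, 24.1, 16.6, 17.3 and 20.2 against 6.76, 11.7 and 11.9 CPM, also did not overlap, but its difference of -0.85 (edgeR adjusted p = 0.00648) was below 2-fold. Leaving out EEDcKO replicate 1 or 2 gave 5 called.

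With EED deleted, 2 of 24 members tested were higher when Aire was also absent. The AireEEDdKO libraries were of 4, 6 and 4 days (pooled, male and male). The EEDcKO libraries were of 6, 2-3 and 1 days (female, pooled and pooled), so genotype went with age and sex here. Between AireEEDdKO and EEDcKO mTEChi, 13.3% of all genes were called, 4.99% as higher, and the members' median was 0.44 against -0.012 over all genes. Hist3h2a was at 23.4, 15.5 and 16.2 CPM in AireEEDdKO against the EEDcKO values above, and rose by 1.37 ± 0.39 (edgeR adjusted p = 0.0134). Hist1h1c was at 24.0, 46.6 and 57.1 CPM in EEDcKO and 121, 85.4 and 67.1 in AireEEDdKO, and rose by 1.05 ± 0.30 (edgeR adjusted p = 0.0140). In both genes the groups did not overlap. Leaving out AireEEDdKO replicate 1 left 0 called, EEDcKO replicate 1 left 1 and AireEEDdKO replicate 3 gave 5. With sex as a term, chosen after seeing the data, 5 were called.

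In neonatal mTEClo, 1 member was lower in EEDcKO than in Ctrl and none higher, with 15.7% of all genes called, 6.22% as lower. Hist1h2bb was at 3.69, 3.13 and 3.35 CPM in Ctrl and at 0.668, 1.43, 0.846 and 1.25 in EEDcKO, without overlap, and fell by 1.67 ± 0.50 on the log2 scale (edgeR adjusted p = 0.0142), on 26 and 15 counts. The median was -0.37 against -0.0058 over all genes, and 4 of 24 were positive. Leaving out Ctrl replicate 3 gave 3 called, EEDcKO replicate 2 gave 4 and EEDcKO replicate 4 gave 2. In these groups cTEC markers were at 1916 to 2946 CPM in Ctrl and 282 to 967 in EEDcKO, and mesenchyme markers at 161.8 to 188.6 and 577 to 892, and their part in the result was not tested.

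Between AireEEDdKO and EEDcKO mTEClo no member was called, with 5.3% of all genes called. By edgeR 1 had an unadjusted p under 0.05, Hist1h2bn at -1.23 ± 0.43 (edgeR adjusted p = 0.0750), and DESeq2 called 0. Without EEDcKO replicate 3, 1 was called. Hist1h2bn was at 2.00, 4.63, 2.12 and 3.00 CPM in EEDcKO and at 1.25, 1.43 and 0.919 in AireEEDdKO, without overlap.

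Neonatal mTEChi and mTEClo did not separate on these genes as the adult WT populations did, though the 2 contrasts were not tested against each other. No member was called between Ctrl mTEChi and mTEClo, where 20.7% of all genes were, nor between the EEDcKO populations, where 21.8% were. By edgeR 1 and 2 members had an unadjusted p under 0.05, and DESeq2 called 0 in both. The smallest p in Ctrl was of Hist1h2bh at 0.99 ± 0.48 (edgeR adjusted p = 0.103), and in EEDcKO of Hist3h2a at -0.89 (edgeR adjusted p = 0.0562). The summed level was 314.8 ± 20.48 CPM in Ctrl mTEClo (n = 3) and 318.7 ± 24.8 in Ctrl mTEChi (n = 5). Ctrl mTEChi replicates 3, 4 and 5 match Ctrl mTEClo replicates 1, 2 and 3 in age and sex. Ctrl mTEChi replicates 1 and 2, both of 6 days, have no such match. EEDcKO mTEChi replicates 1, 2 and 3 match mTEClo replicates 3, 1 and 2. These fits did not pair them.

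Tests of the differences between effects called no member in neonates. For Aire with and without EED in mTEChi, 1.25% of all genes were called, 5 members had an unadjusted edgeR p under 0.05 and DESeq2 called 1. Hist1h1b had a difference of effects of -1.75 ± 0.53 (edgeR adjusted p = 0.0927) and Hist1h2ab of -3.91 ± 1.21 (edgeR adjusted p = 0.102). Leaving out AireEEDdKO replicate 3 gave 1 called. For EED in mTEChi against mTEClo, 1.58% of all genes were called, and 0 members by edgeR, 0 at an unadjusted p under 0.05 and 0 by DESeq2.

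**Figure D4:**
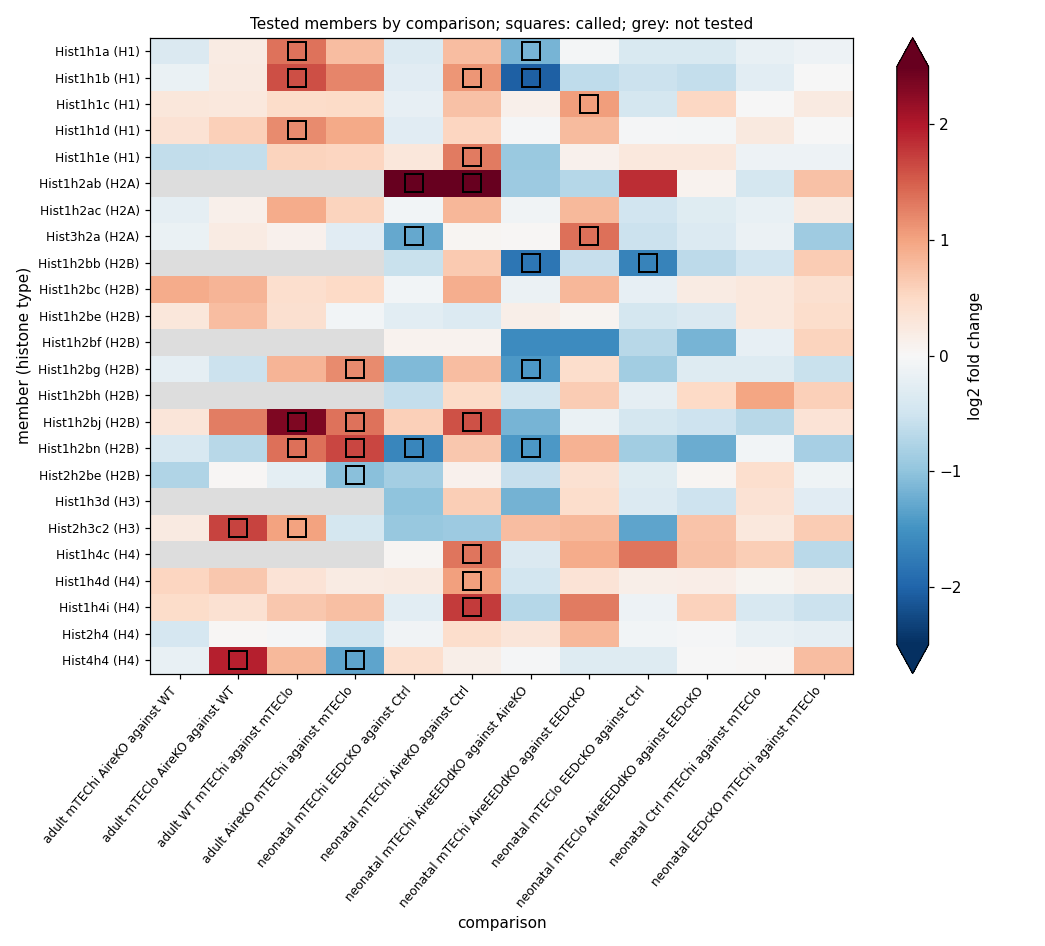
Log2 fold change of 24 tested members (rows) in 12 comparisons (columns), with squares on members called at an adjusted p under 0.05 and at least 2-fold by edgeR; grey cells were not tested. Hist1h2bn was called in 4 comparisons and Hist1h1b in 3.

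Over all comparisons 17 members were called at least once. Hist1h2bn was called in 4 comparisons, and Hist1h1b, Hist1h2bj, Hist2h3c2 and Hist4h4 in 3 each. Hist1h1a, Hist1h2ab, Hist1h2bb, Hist1h2bg and Hist3h2a were called in 2. Of the 6 members listed for polyadenylated forms in non-dividing cells, Hist1h1c, Hist1h2bc, Hist2h2be, Hist3h2a and Hist4h4 were tested. Of these 5, Hist4h4 rose in adult AireKO mTEClo (8.31% of all genes called), and Hist2h2be and Hist4h4 were lower in mTEChi than in mTEClo of adult AireKO (35.3%). Hist4h4 was lower in the adult difference of Aire effects (13.8%), and in neonatal mTEChi Hist3h2a was lower in EEDcKO than in Ctrl (13.9%) and Hist3h2a and Hist1h1c higher in AireEEDdKO than in EEDcKO (13.3%). In the remaining comparisons none of the 5 was called.

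Genes of the cell cycle were called in some of these comparisons and not in others. Lists of 24 genes of S phase and replication and 20 of G2 and mitosis were tested whole. In adult WT, 5 and 20 of them were higher in mTEChi than in mTEClo, with medians of 0.30 and 1.54, among them Mcm10 (1.82), which loads replication factors, and the mitotic genes Tpx2 (1.92) and Bub1 (2.13). Between neonatal AireEEDdKO and AireKO mTEChi, 16 and 19 were lower, with medians of -1.32 and -1.96, among them Rrm1 (-1.33) and Rrm2 (-1.93), subunits of ribonucleotide reductase, and Ccna2 (-2.25) and Cdk1 (-2.39).

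In neonatal AireKO against Ctrl mTEChi, where 7 histone members rose, 0 of 24 and 0 of 20 cell-cycle genes were called. Their medians were 0.29 and 0.40, and 20 of 24 and 19 of 20 were positive. The summed G2 and mitosis level was 2405 to 2716 CPM in AireKO and 1618 to 2197 in Ctrl, without overlap. The S phase sums, 1166 to 1349 and 983.6 to 1214, overlapped. The lack of calls does not show that these genes were level. Cdk1, at 0.70, and Ccna2, at 0.61, did not pass. In adult AireKO mTEClo, where Hist4h4 rose, 0 S phase genes were called and 1 of G2 and mitosis was lower, with medians of 0.04 and -0.36. Between neonatal AireEEDdKO and EEDcKO mTEChi, where Hist3h2a and Hist1h1c rose, 3 and 8 were lower, with medians of -0.48 and -0.84. In adult mTEChi 2 and 8 were lower in AireKO.

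The remaining EED comparisons had lower cell-cycle values. In neonatal EEDcKO against Ctrl mTEChi 1 S phase gene was higher and 3 lower, and 3 of G2 and mitosis were lower. In mTEClo 1 and 8 were lower in EEDcKO than in Ctrl, and 0 and 8 lower in AireEEDdKO than in EEDcKO. The summed G2 and mitosis level was 2056 to 2212 CPM in Ctrl mTEClo and 803 to 1625 in EEDcKO, while the summed histone level overlapped.

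**Figure D5:**
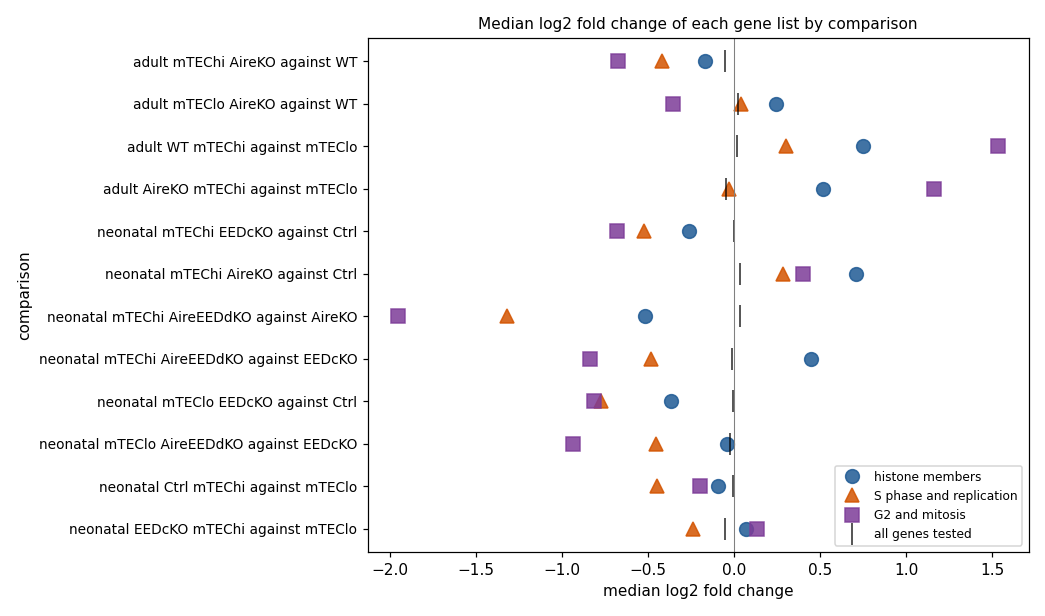
Median log2 fold change in each comparison of the tested histone members, of 24 S phase genes and of 20 G2 and mitosis genes, with a tick for the median of all genes tested. In neonatal AireKO against Ctrl mTEChi the medians were 0.71, 0.29 and 0.40, and between AireEEDdKO and AireKO -0.52, -1.32 and -1.96.

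Few of the factors that make, end and carry histone mRNA and protein were called. Of 19 tested genes of histone mRNA transcription and processing, only Zfp473, which takes part in cleavage of the mRNA, was called, lower in EEDcKO than in Ctrl mTEChi (-1.27) and lower in mTEChi than in mTEClo of EEDcKO (-1.50). Of 19 histone chaperone genes, Asf1b was higher in mTEChi than in mTEClo in adult WT (1.75) and AireKO (1.65), and Nap1l1 was lower in adult AireKO mTEChi (-1.27). Between AireEEDdKO and AireKO mTEChi Rbbp7 (-1.0) and Mms22l (-1.14) were lower, and Chaf1b (-1.08) was lower between AireEEDdKO and EEDcKO. Few calls do not show that these genes were level. Between AireEEDdKO and AireKO the chaperones had a median of -0.61 with 1 of 19 positive, and the processing genes of -0.40 with 3 of 19 positive. The summed chaperones were at 1275 to 1403 CPM in AireEEDdKO and 1725 to 2018 in AireKO, and in mTEClo at 1233 to 1507 in EEDcKO and 1779 to 1811 in Ctrl, without overlap.

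Of the replication-independent histones, 11 of 15 listed were tested. Cenpa, the H3 variant of centromeres, was lower in adult AireKO mTEChi (-1.10), higher in adult WT mTEChi than mTEClo (1.24), and lower in AireEEDdKO than in AireKO (-1.07) and in EEDcKO (-1.79) mTEChi. H1fx, a linker histone variant, was higher in neonatal mTEChi of EEDcKO (4.46) and AireKO (3.67) and in EEDcKO mTEClo (3.69), each against Ctrl. H2afx, the H2A variant phosphorylated at DNA breaks, was higher in EEDcKO (1.25) and AireKO (1.00) mTEChi.

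Other RNA without poly(A) had different summed levels between groups. The summed level of a list that holds Rmrp, Rpph1 and Rn7sk was at 23.3 to 31.7 CPM in adult AireKO mTEChi and 9.7 to 15.2 in WT, and at 21.2 to 24.6 in adult AireKO mTEClo and 12 to 17.3 in WT. In neonatal mTEChi it was at 16.3 to 20.4 CPM in AireKO, 13.7 to 19.9 in AireEEDdKO, 7.9 to 14.3 in Ctrl and 6.9 to 14.1 in EEDcKO. Every adult AireKO mTEClo and neonatal AireKO mTEChi library thus lay above the matching WT or Ctrl libraries in the comparisons in which histone members rose, and its part in them was not tested. Only 1 gene of the list passed the filter, and it was called in none of the comparisons.

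Summed markers of other cells varied between groups. In neonatal Ctrl mTEClo the cTEC sum, 1916 to 2946 CPM, was as high as that of medullary epithelium, 2458 to 2865. Thymocyte markers summed to 219 to 364 CPM in adult mTEChi and 46 to 68 in mTEClo, most of it Tcf7 at 118.7 to 309.2 in mTEChi, while Cd3d was at 0 to 2.29 and Rag2 at 0 to 1.87 CPM in all groups. In neonatal mTEChi mesenchyme markers reached 300 to 367 CPM in Ctrl and 257 to 352 in AireKO, against 544 to 892 in EEDcKO and 448 to 770 in AireEEDdKO, and Col1a1 was at 69.1 to 108.3 in Ctrl and 0 to 1.37 in AireKO. Endothelial markers did not exceed 90.29 CPM in any library. Markers of medullary epithelium were at 1803 to 4311 CPM throughout.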

How the data were processed

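Raw counts per gene were deposited by the authors, 1 table for adults and 1 for neonates. Per the study's methods, reads were cut to 50 bases where needed, filtered with fastp 0.20.0 and aligned with STAR 2.7.3a to mm10 (GRCm38). Alignments with a mapping quality under 5 were dropped with SAMtools 1.9, duplicates were removed with Picard 2.21.1, and genes were counted without strand by HTSeq 0.11.2. Dropping multiply mapped reads removes reads shared by histone copies, and removing duplicates can flatten short, abundant genes. Normalised tables of the same libraries were not used. The annotation release is not given in the sources used here.

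Each table was fitted with all its groups in edgeR 4.0.16 (R 4.3.3), with filterByExpr, TMM factors, a prior count of 0.125 and the quasi-likelihood F-test. Benjamini-Hochberg adjustment covered all 19310 adult and 20196 neonatal genes tested, and called means an adjusted p under 0.05 and at least a 2-fold change. CPM is the count over the TMM-scaled library size. The fit was tested on simulated data. Depth is given with the results, and intervals of single counts are not printed.

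Symbols were matched for 53402 adult and 55230 neonatal genes. Members and lists were chosen with earlier results of these data known. Named members were the 3 of each type with the highest length-scaled mean, up to 3 called in each direction of a comparison with the smallest p (up to 2 where none was called), those on the germ-cell and polyadenylated-form lists, and those with the most or fewest unique windows. List genes are given as counts with examples, and Aire and Eed check the labels. Deviations from the group means of same-numbered libraries correlated above 0.1 in every pair only for adult AireKO mTEChi and mTEClo (4 pairs, 0.139 to 0.222) and neonatal AireEEDdKO and AireKO mTEChi (3 pairs, 0.108 to 0.213), so these were taken as paired.

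Alternatives were other scaling (RLE factors, library size alone), DESeq2 1.42.0, no filter on low counts, no minimum change, the groups of a comparison alone, age, sex (adults) or mitochondrial counts as a term, a replicate block, and leaving out each library. Sex as a term in neonates and the block within 2 groups were added after seeing the data.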

Additional observations from a re-analysis of the deposited data

Results flagged for a closer look

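Single libraries stood apart from the rest of their group in 9 of 150 groups of values tested by Dixon's criterion, where chance flags about 1 in 20. Replicate 1 of neonatal Ctrl mTEChi, from a mouse of 6 days, was low in 3 values: the H4 sum was 33.5 CPM against 46.5 to 49.9 in the others, Hist1h1c 37.4 against 49.8 to 54.7, and Hist1h1a 6.14 against 13.2 to 13.8. In the same group replicate 2 held 4.58 CPM of Hist1h4i against 0.697 to 1.67.

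Replicate 2 of neonatal EEDcKO mTEClo was high for Hist1h1a, 16.8 CPM against 8.26 to 9.52, and for Hist1h2bh, 4.99 against 1.25 to 1.48. In adults Hist1h2bn was at 3.11 CPM in AireKO mTEClo replicate 2 against 0.245 to 0.545, and at 0.0 in WT mTEClo replicate 5 against 1.22 to 2.27. Hist2h3c2 was at 5.66 CPM in WT mTEChi replicate 7 against 2.48 to 3.31.

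By a test of the difference of effects, adult AireKO against WT differed between mTEChi and mTEClo for Hist4h4, by -2.13 on the log2 scale, and for Hist2h3c2, by -1.46. The mTEChi AireKO libraries in this test held no mitochondrial counts.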

How the results depend on the processing

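Of the values that answer a comparison, 465 were counted as staying near their main value and 99 as moved. Numbers of members called were compared as totals only, so a changed split of higher and lower calls could count as staying. Between the adult AireKO populations, leaving out mTEClo AireKO replicate 2 gave 6 higher and 1 lower, against 3 and 2, and was not counted as moved. The cause of a move was not tested unless the alternative itself removes genes or libraries. Without a minimum change, 4 of 18 members tested were called in adult AireKO mTEChi, 6 in AireKO mTEClo and 11 between the WT populations. Of all 19310 genes 10529, 4841 and 13574 were called there. With no filter on low counts, 56 members were tested in adults, among 42889 genes. Between the adult WT populations 15 were called, against 13803 of all genes, and between the AireKO populations 8, against 8506. In the adult difference of Aire effects 1 was called, against 3099 of all genes. In the unfiltered neonatal fits 9 were called in EEDcKO mTEChi, 3 between AireEEDdKO and AireKO and 1 between AireEEDdKO and EEDcKO. In EEDcKO mTEClo 2 were called, and 2 in the Aire by EED test, where DESeq2 called 1. These neonatal counts are given without the share of all genes called. With only the groups of the comparison, 1 was called in adult AireKO mTEClo, 2 between the WT and 2 between the AireKO populations, 3 between AireEEDdKO and AireKO, 0 in EEDcKO mTEClo and 1 between Ctrl mTEChi and mTEClo. In these adult fits 11, 12 and 13 members were tested, against 18 in the main fit. Of all genes 1136 of 16569, 5538 of 17188 and 5207 of 15561 were called there. With library size alone, 3 were called in neonatal AireKO mTEChi and 1 between AireEEDdKO and EEDcKO. With age as a term, 1 was called in adult AireKO mTEClo, 1 in the adult difference of effects and 1 between Ctrl mTEChi and mTEClo. With mitochondrial counts as a term, 2 were called in adult AireKO mTEChi, where Hist1h2bc turned to -0.51, and with only libraries that held them, 4 in adult AireKO mTEClo. With sex as a term, 5 were called between AireEEDdKO and EEDcKO mTEChi and 3 in EEDcKO mTEClo.

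With the replicate block, 4 members were called in neonatal AireKO mTEChi against Ctrl, 1 in the adult difference of effects and 2 between AireEEDdKO and AireKO, and with the block within the groups 3 between the adult AireKO populations. The block changed no other count by over 1.5 times. Outside the 2 comparisons taken as paired, same-numbered libraries did not all correlate above 0.1. Pairs under different numbers were not looked for, so the block cannot show whether such pairs exist. Adult WT mTEChi replicates 3, 4 and 5 match WT mTEClo replicates 6, 7 and 8 in age and sex, and the main fit did not pair them.

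Leaving out 1 library at a time gave 0 to 2 called in adult AireKO mTEChi, 2 to 3 in AireKO mTEClo, 5 to 7 between the WT and 3 to 7 between the AireKO populations, and 1 to 2 in the difference of effects. In neonatal mTEChi it gave 3 to 5 for EEDcKO, 2 to 8 for AireKO, 1 to 4 for AireEEDdKO against AireKO, 0 to 5 against EEDcKO and 0 to 1 for the Aire by EED test. It gave 1 to 4 for EEDcKO mTEClo, 0 to 1 for AireEEDdKO mTEClo, 0 to 0 between the Ctrl and 0 to 2 between the EEDcKO populations, and 0 to 0 for the EED difference.

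Summed over only members that passed the filter, the adult mTEChi AireKO sum was 239.1 CPM. H2A was 15.44 in adult mTEChi AireKO, 17.11 and 15.12 in mTEClo AireKO and WT and 14.47 in neonatal mTEChi EEDcKO, and H2B 57.68 in adult mTEChi WT. H3 was 3.882 and 3.307 in adult mTEChi AireKO and WT, 5.464 and 1.548 in mTEClo AireKO and WT, and 7.704, 11.63 and 6.3 in neonatal mTEClo AireEEDdKO, Ctrl and EEDcKO, and H4 41.47 in neonatal mTEClo Ctrl. Over only members with mostly unique windows, the sums were 292.3 and 285 CPM in neonatal Ctrl mTEChi and mTEClo. H2A was then 16.24 in adult mTEChi AireKO, 17.59 and 15.29 in mTEClo AireKO and WT, and 11.11 and 17.88 in neonatal EEDcKO mTEChi and mTEClo. H2B was 56.79 in adult mTEChi WT, 90.77 and 68.6 in neonatal mTEChi AireKO and Ctrl and 56.82 in mTEClo Ctrl. H3 was 3.34 and 3.499 in adult mTEChi AireKO and WT, 2.592 and 1.949 in mTEClo, 7.591 and 5.119 in neonatal mTEChi AireEEDdKO and Ctrl, and 6.727, 3.79 and 6.108 in mTEClo AireEEDdKO, Ctrl and EEDcKO. Depth limits members of few counts most, and 15 had 10 counts or fewer.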
